A study of Arabidopsis thaliana with 4 samples.

Results

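Glutathione S-transferase genes of Arabidopsis thaliana were followed in leaf explants before and during callus formation. The family list held 46 loci of the tau, phi, zeta and theta classes, and 19 of them occurred in at least 1 of the authors' tables of increased genes, among 2773 genes in those tables. RNA came from wild type Col-0 and from the mutant lbd16-2, which carries a mutant allele of the transcription factor gene LBD16. Explants were the first leaf pair, cut from plants 12 days old, and were taken at once (day 0) or kept for 4 days on callus inducing medium in the dark (day 4). The labels of all 4 libraries give 22 °C with 16 h light and 8 h dark, the same at day 0 and day 4. These labels do not themselves show the darkness during culture. Each genotype and day had 1 library, so differences cannot be set against the spread between replicates and no test was run. LBD16 itself had 20.9 normalised counts (reads divided by the size factor of the library) at day 0 and 981 at day 4 in Col-0, and 34.3 and 518 in lbd16-2. Reads of LBD16 were thus present in both lbd16-2 libraries, and these levels do not check the genotype label. The members were found by membership of lists that require a log2 fold of day 4 over day 0 above 3, an 8-fold increase. Their increase is therefore a description and not a finding, and family members that were lower at day 4 or changed less were not analysed here. In whole explants, more cells of a type and more RNA per cell cannot be told apart. Time after cutting, culture medium and darkness changed together between day 0 and day 4, and their parts cannot be told apart either.

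Glutathione S-transferases join the tripeptide glutathione to reactive or foreign molecules, or use it to reduce peroxides. The tau and phi classes are the large plant classes and are known for strong induction by herbicides, auxin, salicylate, wounding and pathogens, while zeta and theta are small classes shared with animals. Conjugates are moved into the vacuole by ABCC transporters and then broken down. Single members have specific roles, such as GSTF12 in carrying anthocyanin to the vacuole, GSTF6 in camalexin synthesis and GSTZ1 in tyrosine breakdown. Leaf tissue could not be checked against its markers, since tables of increased genes do not hold them.

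The increased members were of the tau and phi classes. The wild-type list held 13 of the 46 loci, 28.3%, beside 8.91% of the 24442 genes tested by the authors. The lbd16-2 list held 18 of 46, 39.1%, beside 9.18% of 24518. By class, 12 of 28 tau loci and 1 of 13 phi loci were in the wild-type list, and 13 tau and 5 phi loci were in the lbd16-2 list. None of the 2 zeta and 3 theta loci was in any table. Both lists held 12 members (6.78% of genes tested were in both), 1 member was in the wild-type list alone (2.14%) and 6 were in the lbd16-2 list alone (2.42%). With a log2 fold limit of 4 the lists held 11 members in Col-0 (5.81% of genes tested) and 16 in lbd16-2 (5.56%). The unlisted tau loci were GSTU2, GSTU5, GSTU10, GSTU13, GSTU16 to GSTU21, GSTU23 and GSTU26 to GSTU28. The unlisted phi loci were GSTF4 and GSTF8 to GSTF14, and the others were GSTZ1, GSTZ2 and GSTT1 to GSTT3. Whether these 27 loci were among the genes tested is not known.

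**Figure D1:**
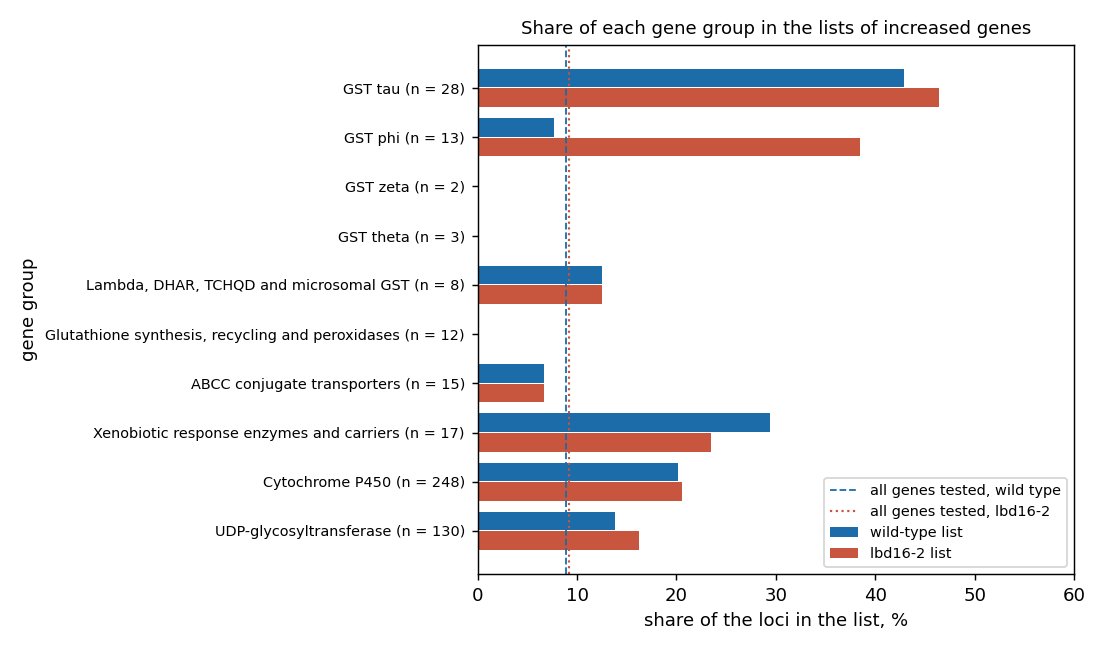
Share of each gene group, in percent of its loci, found in the wild-type list (blue bars) and in the lbd16-2 list (red bars), with dashed and dotted lines for the share of all genes tested. Tau loci stand at 42.9% and 46.4%, while phi loci stand at 7.69% in Col-0 and 38.5% in lbd16-2.

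The members were listed with larger median folds than the lists as a whole. Since 1 is added to each count before the log, this comparison depends on day 0 levels, which were higher for the members, with a median of 13.3 normalised counts against 2.09 in Col-0 and 10.7 against 1.86 in lbd16-2. In the wild-type list their median log2 fold was 5.23, beside 4.56 over all 2179 listed genes, and their values ran from 3.75 to 10.02. In the lbd16-2 list the median was 5.61, beside 4.46 over 2251 genes, with a range of 3.17 to 8.28. Members also had higher day 4 levels than the typical listed gene, with a median of 385 normalised counts against 168 in Col-0, and 894 against 140 in lbd16-2. In the wild-type list 2 of 13 members had no read at day 0 (31.1% of all genes in that list), and in the lbd16-2 list 3 of 18 (36.2%). The members nearest the limit were GSTU9 at 3.75 in Col-0 and GSTF2 at 3.17 in lbd16-2, and GSTU7 lay just outside it in lbd16-2 at 2.81. In the authors' deposited table an FDR under 0.05 was given for 2 of 13 members in Col-0, 15.4% beside 11.5% of all genes in that list, and for 5 of 18 in lbd16-2, 27.8% beside 8.97%. Of all genes tested, 1.03% and 0.824% were listed with such an FDR.

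The neighbouring tau genes GSTU24 and GSTU25 had the highest day 4 levels in Col-0 among the 13 members with Col-0 values. Both enzymes are known to conjugate the explosive trinitrotoluene. GSTU25 (AT1G17180) had 2.79 normalised counts at day 0 and 3940 at day 4 in Col-0, and 7.42 and 2622 in lbd16-2. Its fold was 1412 in Col-0, with a 95% counting interval of 551 to 5183, and 353 (179 to 819) in lbd16-2. These exact binomial intervals reflect the counting of reads alone and set 1 library against another, not condition against condition. GSTU25 had the largest wild-type log2 fold of the members, 10.02, and an FDR of 0.00133 in Col-0 and 0.00719 in lbd16-2 in the authors' deposited table. GSTU24 (AT1G17170) had 94.9 and 5300 normalised counts in Col-0, and 213 and 5107 in lbd16-2. It was already expressed in leaves, so its fold was smaller, 55.9 (47.1 to 66.7) in Col-0 and 23.9 (21.0 to 27.4) in lbd16-2. Per kilobase of transcript, GSTU24 had 4413 and GSTU25 3878 normalised counts at day 4 in Col-0, ahead of GSTU1 with 1989.

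**Figure D2:**
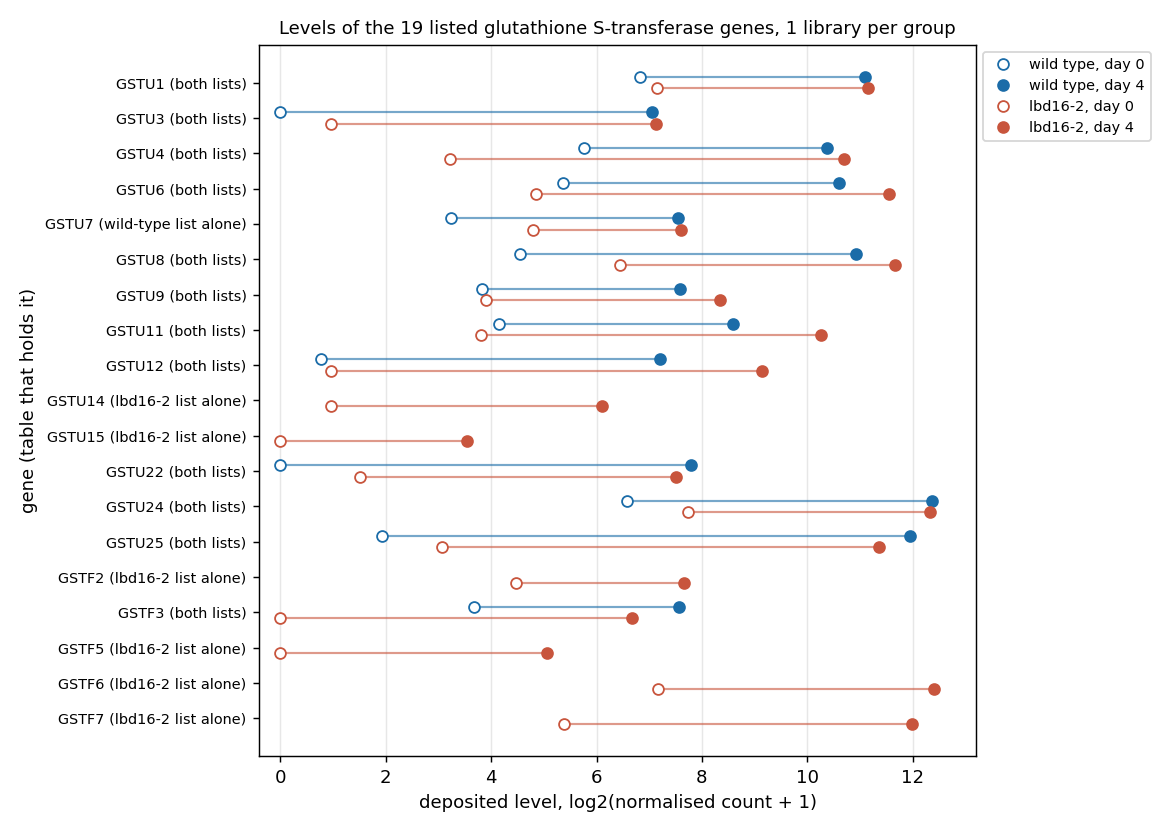
Deposited level, log2(normalised count + 1), of each listed member at day 0 (open circles) and day 4 (filled circles) in Col-0 (blue) and lbd16-2 (red), 1 library each. Day 0 levels spread from 0 to 7.74 while GSTF6, GSTU24 and GSTF7 end highest, and members of the lbd16-2 list alone have no wild-type points.

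The GSTU1 to GSTU7 cluster on chromosome 2 contributed 5 members. GSTU1 (AT2G29490) had the highest day 0 level of these 5, with 112 normalised counts in Col-0 and 140 in lbd16-2, and reached 2198 and 2288 at day 4. Its folds of 19.7 (16.8 to 23.2) and 16.3 (13.9 to 19.3) had overlapping counting intervals. GSTU6 (AT2G29440) was at 40.5 and 1554 normalised counts in Col-0 and at 27.8 and 2994 in lbd16-2. Its fold was 38.4 (29.6 to 50.7) in Col-0 and 108 (75.3 to 160) in lbd16-2. GSTU4 (AT2G29460) was at 53.7 and 1318 normalised counts in Col-0 and at 8.35 and 1647 in lbd16-2. Its folds were 24.5 (19.5 to 31.2) and 197 (104 to 432), and most of that gap lay at day 0, where the lbd16-2 level was 0.155 times that in Col-0 (0.0685 to 0.311). GSTU3 (AT2G29470) had 0 reads at day 0 and 132 normalised counts at day 4 in Col-0, at least 63.2-fold higher against a floor of 3 reads. In lbd16-2 it had 1 read at day 0 and 139 normalised counts at day 4, 149-fold (26.5 to 5923).

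GSTU7 (AT2G29420) was the 1 member in the wild-type list alone. It had 8.37 normalised counts at day 0 and 187 at day 4 in Col-0, and 26.9 and 195 in lbd16-2. Its day 4 levels were nearly equal, and the genotypes differed at day 0, where lbd16-2 was 3.21 times wild type (1.59 to 6.91). Its fold was 22.3 (12.6 to 43.7) in Col-0 and 7.25 (4.95 to 11.0) in lbd16-2. GSTU6 overlaps 1 gene on the other strand in the RefSeq annotation, GSTU7 overlaps 2 and the phi member GSTF2 overlaps TOC159. The sources used here do not say whether counting used the strand, so reads from the overlapping stretches cannot be assigned with certainty. The length of these overlaps was not measured.

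Another 5 tau members, GSTU8, GSTU9, GSTU11, GSTU12 and GSTU22, were also listed in both genotypes. GSTU8 (AT3G09270) had 22.3 and 1930 normalised counts in Col-0 and 86.3 and 3245 in lbd16-2, with folds of 86.5 (61.1 to 127) and 37.6 (30.6 to 46.7). Its FDR in the authors' deposited table was 0.0278 in Col-0 and 0.157 in lbd16-2. GSTU9 (AT5G62480) had 13.3 and 191 normalised counts in Col-0 and 13.9 and 326 in lbd16-2. GSTU22 (AT1G78340) had 0 reads at day 0 and 221 normalised counts at day 4 in Col-0, at least 106-fold higher. In lbd16-2 GSTU22 had 2 reads at day 0 and 180 normalised counts at day 4, 97.1-fold (26.6 to 805). The neighbours GSTU11 and GSTU12 differed from each other before culture: GSTU11 (AT1G69930) had 16.7 normalised counts at day 0 in Col-0 and GSTU12 (AT1G69920) had 1 read. GSTU11 reached 385 in Col-0 and 1223 in lbd16-2, where it started from 13.0. GSTU12 reached 146 in Col-0 and 564 in lbd16-2, where it also had 1 read at day 0.

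At day 4 the members lay on both sides of equality between the genotypes. Over the 13 members with values in all 4 libraries the median log2 ratio of lbd16-2 over wild type was 0.07 (-0.30 to 0.95, an order-statistic interval over genes, which are not replicates), beside -0.17 over all 2175 such genes and -0.01 over the 1657 genes in both lists, to which 12 of the 13 members belong. The 2175 genes include the wild-type list alone and not the lbd16-2 list alone, which tilts them towards lower values in lbd16-2. The counting interval of the ratio lay above 1 for 6 members, below 1 for 4 and held 1 for 3. Over all 2175 genes it lay above 1 for 31.4% and below 1 for 43.0%, and over the 1657 genes in both lists for 38.4% and 38.1%. The 2 members higher by over 2-fold in lbd16-2 were GSTU12, with a ratio of 3.87 (3.33 to 4.52), and GSTU11, with 3.18 (2.89 to 3.50). Over all 2175 genes 11.3% were higher by over 2-fold and 24.0% were lower by over 2-fold, while no member was lower by that much. Over the 1657 genes in both lists these shares were 14.4% and 18.2%. GSTU6 had a ratio of 1.93 (1.83 to 2.03), GSTU9 of 1.71 (1.47 to 1.98), GSTU8 of 1.68 (1.61 to 1.76) and GSTU4 of 1.25 (1.18 to 1.33). GSTF3 had the lowest ratio, 0.542 (0.445 to 0.660), followed by GSTU25 at 0.665 (0.640 to 0.692) and GSTU22 at 0.813 (0.692 to 0.956). GSTU24 lay close to equality at 0.963 (0.934 to 0.994), and its interval reached 1.00 with levels centred on the genes in both lists. The ratios of GSTU1, GSTU3 and GSTU7, between 1.04 and 1.05, had intervals that held 1.

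**Figure D3:**
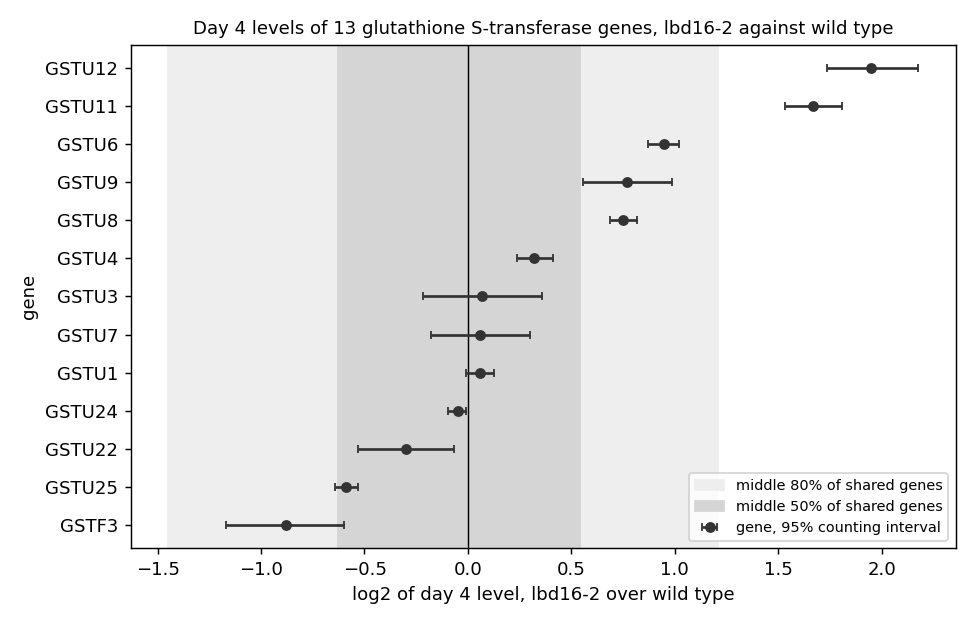
Log2 ratio of the day 4 level in lbd16-2 over wild type for the 13 members with 4 values, with 95% counting intervals as bars. Grey bands give the middle 50% (-0.63 to 0.54) and 80% (-1.45 to 1.21) of 1084 genes in both lists whose day 4 mean reached 100 normalised counts, and GSTU11 and GSTU12 lie to the right of both.

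Sums could be compared over the 13 members with 4 values, and not over the family. These members together had 377 normalised counts at day 0 and 17690 at day 4 in Col-0, and 541 and 20630 in lbd16-2. The day 4 sum in lbd16-2 was 1.17 times that in Col-0 (1.15 to 1.19) and the day 0 sum 1.44 times (1.27 to 1.62). At day 0, genes in both lists whose day 0 mean reached 20 normalised counts (376 genes) were higher in lbd16-2. Their median log2 difference, the day 0 offset, was 0.47, and its part in the day 0 values was not tested. Without that filter the day 0 median was 0.00 over the 1657 genes in both lists and 0.13 over all 2175 genes, beside 0.32 over the 13 members. Centring used the offset of 0.47, so centred day 0 ratios and fold differences depend on this choice of genes. The day 4 offset over 1536 genes was -0.01. Single members departed from the day 0 offset in both directions. GSTU8 was 3.86 times higher in lbd16-2 (2.56 to 5.97) and GSTU24 2.25 times (1.81 to 2.80), while GSTU4 and GSTF3 were lower, the latter with 17 reads in Col-0 and 0 in lbd16-2.

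The difference between the genotypes' log2 folds had no single sign among the members. Its median, wild type minus lbd16-2, was 0.27 (-2.01 to 1.51) over the 13 members and 0.57 over all 2175 genes, where genes of the wild-type list alone are bound to be positive. With levels centred on the genes in both lists the members' median turned to -0.21, and over the 12 members in both lists it was -0.22, beside 0.22 over the 1657 genes in both lists. A larger fold in lbd16-2 was found for 6 members, 46.2%, beside 32.4% of all 2175 genes and 42.5% of genes in both lists. Counting intervals of the difference lay below 0 for GSTU4 at -2.87 (-3.91 to -1.96), GSTU11 at -2.01 (-2.96 to -1.07) and GSTU6 at -1.47 (-2.11 to -0.84). They lay above 0 for GSTU25 at 1.74 (0.27 to 3.57), GSTU7 at 1.51 (0.61 to 2.57), GSTU24 at 1.21 (0.91 to 1.53) and GSTU8 at 1.15 (0.61 to 1.77). GSTU7 is in the wild-type list alone, so the sign of its difference was set by the rule of the lists. With centred levels the interval of GSTU25 ran from -0.21 to 3.09 and held 0, while those of GSTU9 (-2.15 to -0.18) and GSTF3 (-8.38 to -0.25) came to lie below 0.

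**Figure D4:**
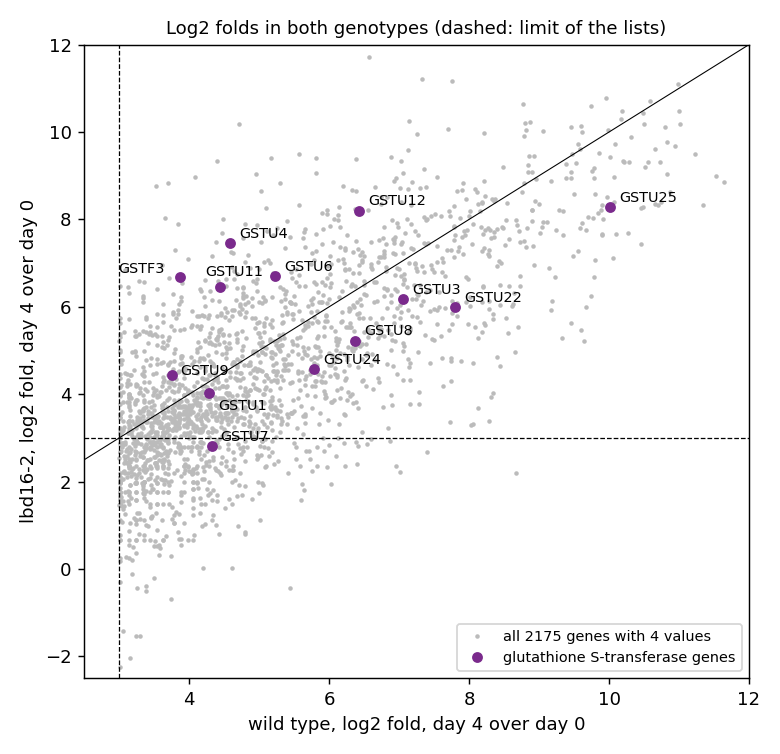
Log2 fold of day 4 over day 0 in lbd16-2 against that in Col-0 for 13 members (purple) and all 2175 genes with 4 values (grey), with the limit of the lists dashed at 3 and the line of equal folds drawn. GSTF3, GSTU4, GSTU6, GSTU9, GSTU11 and GSTU12 lie above the line of equal folds and GSTU25 lies at the upper right.

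Phi members were mostly in the lbd16-2 list alone, and their wild-type values were not analysed here. Their absence from the wild-type list says that the wild-type log2 fold was not above 3 or that the gene was not tested there. GSTF6 (AT1G02930), which acts in camalexin synthesis, had 143 normalised counts at day 0 and 5440 at day 4 in lbd16-2, the highest day 4 level of the members in that genotype. Its fold was 38.1 (32.5 to 45.0). GSTF7 (AT1G02920), its neighbour, had 40.8 and 4081 normalised counts, with an interval of the fold from 74.4 to 138. In the authors' deposited table the FDR in lbd16-2 was 0.234 for GSTF6 and 0.0538 for GSTF7. Both genes are known for induction by salicylate and pathogens. Per kilobase of transcript, GSTF6 had 4587 normalised counts at day 4 in lbd16-2, GSTU24 had 4252 and GSTF7 had 3364.

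The other 4 members of the lbd16-2 list alone had day 4 levels of 10.7 to 200 normalised counts. GSTF2 (AT4G02520), whose product binds indole compounds, had 21.3 normalised counts at day 0 and 200 at day 4, a 9.39-fold difference (6.15 to 15.0). These counts may include reads from the stretch that overlaps TOC159. GSTF5 (AT1G02940), the next gene to GSTF6, had 0 reads and 32.1 normalised counts, at least 11.5-fold higher. The tau genes GSTU14 (AT1G27140), with 1 read at day 0 and 67.8 normalised counts at day 4, and GSTU15 (AT1G59670), with 0 and 10.7, completed the group. Against the floor of 3 reads GSTU15 was at least 3.85-fold higher, a bound below the 8-fold limit that its deposited log2 fold of 3.55 passed. GSTF3 (AT2G02930) was the phi member in both lists, with 11.9 and 188 normalised counts in Col-0 and 0 and 102 in lbd16-2.

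Some phi members are so alike that part of their counts is uncertain. The coding sequences of GSTF6 and GSTF7 were 94.3% identical and those of GSTF2 and GSTF3 94.5%, against a median of 52.2% over all pairs of phi loci. Of all windows of 50 bases in the coding sequence, 17.3% of those of GSTF6 occurred unchanged in GSTF7 and 5.93% of those of GSTF3 in GSTF2. Among tau loci the most alike pair, GSTU1 and GSTU2, was 85.5% identical, and no listed tau member shared such a window with another coding sequence. The first 90 coding bases are shown as an example, from the RefSeq annotation of TAIR10.1, with the bases that differ within each pair in capitals. They differ at 1 base between GSTF6 and GSTF7 and at 3 between GSTF2 and GSTF3, so this stretch is more alike than the whole coding sequences.
GSTF6 coding start: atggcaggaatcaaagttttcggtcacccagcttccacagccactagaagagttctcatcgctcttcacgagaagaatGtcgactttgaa
GSTF7 coding start: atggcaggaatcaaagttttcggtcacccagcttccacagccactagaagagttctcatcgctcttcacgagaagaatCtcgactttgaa
GSTF2 coding start: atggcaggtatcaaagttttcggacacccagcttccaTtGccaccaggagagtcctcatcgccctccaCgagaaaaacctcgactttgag
GSTF3 coding start: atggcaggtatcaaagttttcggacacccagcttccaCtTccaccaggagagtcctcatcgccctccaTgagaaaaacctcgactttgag
The sources used here do not say how reads that match several genes were counted. The split of such reads between GSTF6 and GSTF7, and between GSTF2 and GSTF3, is therefore uncertain.

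Position along the chromosomes and listing were set side by side. With at most 3 other protein-coding genes between neighbours, 34 of the 46 loci fell into 11 clusters and 12 stood alone. Of the 34 loci in clusters 15 were listed, and of the 12 single loci 4, beside 19 of all 46 loci (41.3%). In 6 clusters a listed member stood beside an unlisted one. Listed GSTU24 and GSTU25 adjoin unlisted GSTU26, and listed GSTU22 lies among unlisted GSTU19, GSTU20, GSTU21 and GSTU23. The cluster of GSTU11 and GSTU12 was listed whole. GSTF5, GSTF6 and GSTF7 were all in the lbd16-2 list alone, beside unlisted GSTF4.

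**Figure D5:**
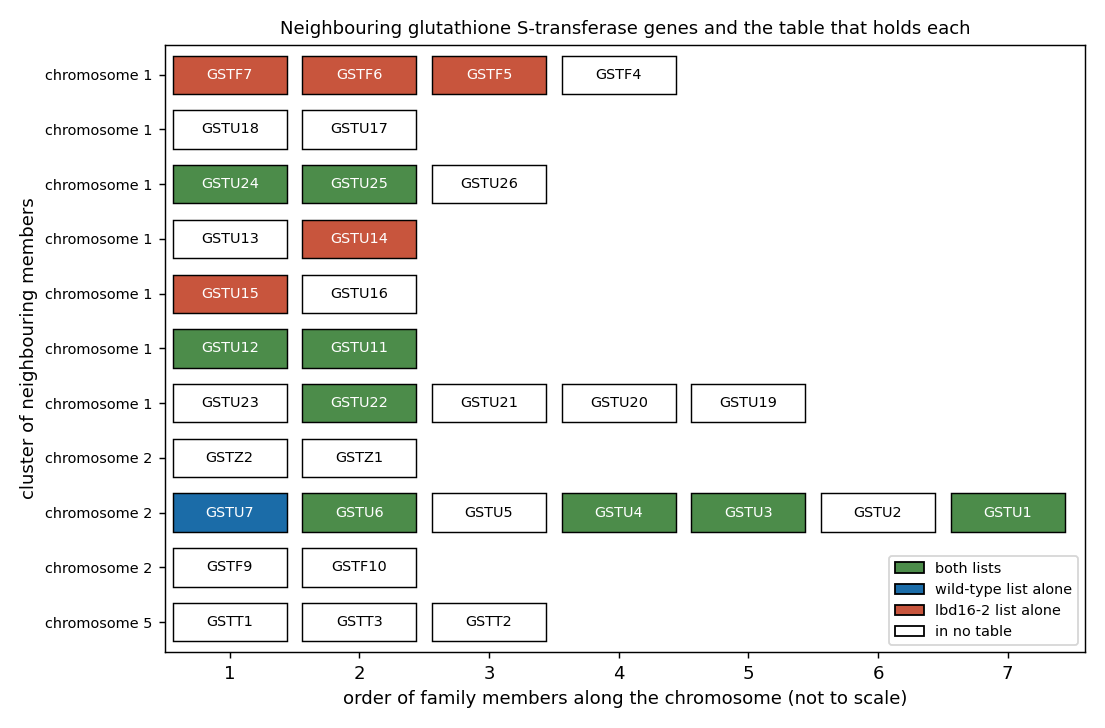
Order of the family members in the 11 clusters of neighbouring loci, 1 row per cluster, with green for genes in both lists, blue for the wild-type list alone, red for the lbd16-2 list alone and white for genes in no table. Listed and unlisted neighbours share 6 of the clusters, and 3 red genes adjoin each other on chromosome 1.

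Sequences upstream of the members were searched for TGACG, the core of the as-1 element. This element is bound by TGA factors, a group of bZIP proteins, and is known from promoters of plant glutathione S-transferase genes. In the 250 bases before the annotated gene start, TGACG on either strand occurred in 10 of the 19 listed members, 52.6%, and in 5 of the 27 unlisted loci, 18.5%. Of all 27443 protein-coding genes 18.6% had it, and of the listed genes in general 19.5%. It was found for 9 of the 12 members in both lists, for GSTU7 and for none of the 6 members of the lbd16-2 list alone. Some windows reach into a neighbouring gene, and the counts include those parts. The TGACG of listed GSTU24 and that of unlisted GSTU5 lie in such a part, and only 48 bases of the GSTF2 window lie outside one. The GSTU7 window overlaps annotated AT2G00850, and whether its TGACG matches lie in that part is not given here. The spaced pair TGACGNNNNNNNTGACG occurred in 17 promoters of all 27443 genes, and GSTU1 and GSTU7 were among them. A match describes the letters and does not show a bound site, and these counts were made after the lists were known.

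Other motifs showed smaller contrasts. TTGAC, the core of the W box bound by WRKY factors, which can overlap TGACG by its last letters, occurred in 63.2% of the listed members and 44.9% of all genes. TGTCTC, an auxin response element, occurred in 0 of 19 listed members and 10.9% of all genes. GSTU24 and GSTU22 shared a run of 15 bases, gcagtggcctaagca, that starts 3 bases after TGACG in both windows and occurred in 2 of the 27443 windows. In GSTU24 this part lies within the annotated end of its neighbour AT1G17160.

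The windows of 4 tau members with the motif and of GSTF7 without it are given from RefSeq TAIR10.1, 5′ to 3′ on the strand of the gene and ending at the base before the gene start. Capitals mark TGACG or its complement, including the overlapping pair in GSTU7.
GSTU1 upstream window, chr2:12632539-12632788, minus strand: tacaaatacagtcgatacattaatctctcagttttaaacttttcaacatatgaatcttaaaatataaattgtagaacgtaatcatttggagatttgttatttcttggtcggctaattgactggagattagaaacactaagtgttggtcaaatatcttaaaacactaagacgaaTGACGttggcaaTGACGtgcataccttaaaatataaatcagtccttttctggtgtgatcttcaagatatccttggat
GSTU7 upstream window, chr2:12618900-12619149, minus strand: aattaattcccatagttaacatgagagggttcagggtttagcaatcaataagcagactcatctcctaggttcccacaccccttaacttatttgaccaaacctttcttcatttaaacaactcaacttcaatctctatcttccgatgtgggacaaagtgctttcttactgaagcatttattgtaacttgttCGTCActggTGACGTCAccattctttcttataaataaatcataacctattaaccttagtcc
GSTU22 upstream window, chr1:29474004-29474253, minus strand: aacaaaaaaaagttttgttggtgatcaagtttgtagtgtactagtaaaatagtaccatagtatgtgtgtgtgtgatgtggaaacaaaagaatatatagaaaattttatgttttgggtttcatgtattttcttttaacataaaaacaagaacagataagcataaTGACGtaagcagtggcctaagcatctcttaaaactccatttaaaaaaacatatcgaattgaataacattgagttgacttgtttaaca
GSTU25 upstream window, chr1:5871774-5872023, plus strand: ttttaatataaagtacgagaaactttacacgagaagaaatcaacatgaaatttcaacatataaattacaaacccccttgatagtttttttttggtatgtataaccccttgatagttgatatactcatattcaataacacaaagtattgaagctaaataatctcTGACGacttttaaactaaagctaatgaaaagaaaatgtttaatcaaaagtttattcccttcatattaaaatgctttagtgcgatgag
GSTF7 upstream window, chr1:659981-660230, minus strand: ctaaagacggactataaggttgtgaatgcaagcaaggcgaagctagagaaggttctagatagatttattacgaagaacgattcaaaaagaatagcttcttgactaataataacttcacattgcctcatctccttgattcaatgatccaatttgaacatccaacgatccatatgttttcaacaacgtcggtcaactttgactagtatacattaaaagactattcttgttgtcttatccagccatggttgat

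Other genes of glutathione use were counted against the 8.91% and 9.18% of genes tested that were in the lists, and in lists of this size a count of 0 or 1 lies near that background. None of 12 loci for glutathione synthesis, reduction and glutathione peroxidases was listed. Of 8 further transferase loci, the lambda, dehydroascorbate reductase, TCHQD and microsomal types, GSTL1 was listed in both genotypes. GSTL1 had 8.37 and 107 normalised counts in Col-0 and 0 and 433 in lbd16-2, a day 4 ratio of 4.06 (3.40 to 4.87). Of 15 ABCC transporter loci ABCC6 was in both lists, 6.67% of its group, with day 4 levels of 131 and 129 normalised counts in Col-0 and lbd16-2. Of 8 loci for glutathione breakdown and conjugate processing, the phytochelatin synthase gene PCS2 was in the wild-type list alone, at 127 and 87.4 normalised counts at day 4.

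Pathways in which single transferases act gave mixed counts, and the counts of 0 again lie near the background of 8.91% and 9.18%. None of 13 anthocyanin genes was listed, and neither was GSTF12. None of 5 tyrosine breakdown genes was listed, and neither were GSTZ1 and GSTZ2. Of 7 camalexin genes 3 were in both lists, 42.9%, beside 6.78% of genes tested that were in both. The day 4 ratio of lbd16-2 over wild type was 2.72 (2.55 to 2.91) for PAD3, the last enzyme of the pathway. It was 5.64 (4.87 to 6.56) for CYP71A12 and 1.66 (1.48 to 1.88) for CYP71A13, while GSTF6 was in the lbd16-2 list alone. At day 0 PAD3 was lower in lbd16-2, with 4 reads against 86 in Col-0, a ratio of 0.0618 (0.0165 to 0.164) after scaling by the size factors. CYP71A13 had 24 reads in Col-0 and 0 in lbd16-2 at day 0, and CYP71A12 had 14 reads in each. Of 11 TGA and SCL14 regulator loci TGA9 was in both lists and PAN in the wild-type list alone. That was 18.2% of these loci in Col-0 and 9.09% in lbd16-2, beside 8.91% and 9.18% of genes tested. PAN had 115 normalised counts in Col-0 and 52.9 in lbd16-2 at day 4, and TGA9 had 23.3 and 42.8.

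Enzymes and carriers known to respond to foreign chemicals together with these transferases were listed in part, 5 of 17 loci in Col-0, 29.4% beside 8.91% of genes tested, and 4 of them also in lbd16-2, 23.5% beside 9.18%. The glucosyltransferase gene UGT73B4 stood highest, going from 11.2 to 7398 normalised counts in Col-0 and from 17.6 to 4006 in lbd16-2. Its day 4 ratio of 0.541 (0.525 to 0.558) lay below 1, as did that of GSTU25. UGT73B5 had 1294 and 1443 normalised counts at day 4, and the P450 gene CYP81D8 had 846 and 686. The efflux carrier gene DTX1 had 116 and 184. Its relative AT2G04050 was in the wild-type list alone at 214 and 233. The wild-type log2 folds of CYP81D8, UGT73B5, DTX1 and AT2G04050 were 3.01, 3.45, 3.19 and 3.00, close to the limit of 3. In lbd16-2 those of CYP81D8, UGT73B5 and DTX1 were 3.01, 3.71 and 3.39. Only UGT73B4, at 9.25 in Col-0 and 7.75 in lbd16-2, passed a limit of 4, beside 5.81% and 5.56% of genes tested.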

How the data were processed

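RNA-seq libraries of leaf explants were analysed from the tables the authors deposited. The tools named per the submitters' processing notes are STAR, Cufflinks, DESeq, Trim Galore and FastQC, and the build is TAIR10; the sources used here give no versions or settings. The deposited levels are on a log2 scale, as the log2 of 1 plus the size-factor-scaled read number (the normalised count), a form inferred from the values: with size factors of 1.43, 1.41, 1.08 and 1.68 (wild type day 0 and day 4, lbd16-2 day 0 and day 4), 100% of values were whole reads within 0.001. The deposited log2 folds are differences of these levels, so changes of weakly expressed genes come out too small, and the deposited ratio of folds was not used. P-value and FDR were taken as the authors deposited them, and how they were obtained from single libraries is not stated. The number of genes tested was recovered from the ratio of p-value to FDR, which gave whole ranks for 53.1% and 54.4% of genes with an FDR under 1.

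From the recovered reads, ratios of 2 libraries with exact binomial 95% intervals were computed (Python 3.11.15, SciPy 1.17.1), with 0 reads set to a floor of 3 reads per library for bounds. Differences of log2 folds have normal intervals with 0.5 added to each read count. Total depth is unknown. The steps were tested on simulated reads. Names, transcript lengths and sequences come from RefSeq TAIR10.1, where all 46 loci matched; coding sequences were aligned with Biopython 1.88. Coordinates are those of TAIR10.1, and the tables carry none. The family members and the other gene lists were chosen with earlier results of these data known. Every listed member is named, as is every listed gene of the other lists except that, of the cytochrome P450 and UDP-glycosyltransferase families, the 3 in both lists with the highest wild-type day 4 level are named.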

Additional observations from a re-analysis of the deposited data

How the results depend on the processing

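No alternative replaces a replicate. The count of members in the lists stayed within 1.5 times with a log2 fold limit of 4 (11 in wild type, 16 in lbd16-2), with at least 100 normalised counts at day 4 (13 and 15) and with folds put on a common median of the shared genes (13 and 18). With the authors' FDR under 0.05 it dropped to 2 in wild type and 5 in lbd16-2. Loci in no list could not enter under any of these alternatives, so an unchanged count does not show that the count is stable. The median day 4 log2 ratio of the members lay between 0.06 and 0.19 under all alternatives tried. The median difference of log2 folds, 0.27, was -0.21 with levels centred on the shared genes and -0.22 over members in both lists. The median day 0 log2 ratio, 0.32, was -0.14 with centred levels. Centring moves every gene alike, so its shifts show a dependence on scaling and nothing about the members. Centring moved the day 4 ratio of each of the 13 members by less than its counting interval. Centring single fold differences, an alternative chosen after seeing the data, ended the call of GSTU25 (1.26) and gave calls for GSTU9 (-1.18) and GSTF3 (-3.29); the other 10 members kept theirs. No paired analysis was possible because each group has 1 library. Genes with 0 to 4 reads at day 0, such as GSTU3, GSTU12, GSTU22 and GSTU25, have folds limited by depth.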

Other observations

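The neighbouring detoxification families were also listed at shares above that of all genes tested. Of 248 cytochrome P450 loci 20.2% were in the wild-type list and 20.6% in the lbd16-2 list, and of 130 UDP-glycosyltransferase loci 13.8% and 16.2%, beside 8.91% and 9.18% of all genes tested. Of the P450 genes in both lists CYP89A9, which acts in chlorophyll breakdown, had the highest wild-type day 4 level, with 6215 normalised counts in wild type and 8605 in lbd16-2. CYP72A7 had 2355 and 2232, and CYP709B2 had 1409 and 817. Of the glycosyltransferase genes, AT4G19460 had 1758 and 1100 normalised counts at day 4 and UGT73B3 had 1455 and 1728, after UGT73B4.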
